A study of Mus musculus with 6 samples.

Results

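The genes Rtn2 and Gm26802 lie side by side on mouse chromosome 7, and they are described here with 4 genes that flank them, Opa3, Vasp, Ppm1n and Ercc1. These 6 genes were taken by symbol from the 14490 genes of the deposited table. The pair was chosen by its normalized counts, which were higher in cKO than in WT samples, so the size of that difference is given as a description and without a test. The other 4 were picked for their place beside Rtn2, and the question was whether the rise reached beyond the pair.

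mRNA-seq was performed on NK cells that were sorted from the spleens of C57BL/6 mice. There were 3 samples of WT mice, whose genotype was Mettl3fl/fl, and 3 samples of cKO mice, whose genotype was Ncr1Cre-Mettl3fl/fl. Both groups therefore carried the floxed Mettl3 allele, and the cKO mice alone carried Cre, which is expressed from the Ncr1 locus in cells that make NKp46, chiefly NK cells. No group had Cre without floxed Mettl3, so the Cre allele and the loss of Mettl3 cannot be told apart. Mice of the study as a whole were 6 to 10 weeks old, while the age behind a single sample and whether a sample pooled several mice are not given in the sources used here.

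METTL3 is the catalytic subunit of the complex that places N6-methyladenosine (m6A) on RNA, and the mark is read by proteins that act on splicing, export, translation and decay. Rtn2 encodes a reticulon, a member of a family of hairpin membrane proteins that bend the tubules of the endoplasmic reticulum, and human RTN2 is known as a gene for hereditary spastic paraplegia. Gm26802 is a long intergenic non-coding RNA with no established role. Of the flanking genes, Opa3 encodes a mitochondrial protein that is mutated in optic atrophy with methylglutaconic aciduria. Vasp encodes an actin-binding protein that lengthens filaments at the leading edge and at synapses of immune cells, and Ppm1n a protein phosphatase of the PP2C family. Ercc1 encodes the partner of the XPF nuclease in nucleotide excision repair and crosslink repair.

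In GRCm38 coordinates, Rtn2 (ENSMUSG00000030401.16) spans chr7:19282624-19296160 on the plus strand and Gm26802 (ENSMUSG00000097266.1) spans chr7:19298260-19300770 on the minus strand. The 3′ ends of the pair thus face each other, 2100 bases apart. The promoters of the pair are shown because both genes rose in cKO. They lie at opposite ends of the pair and do not overlap. Each window runs 5′ to 3′ from 250 bases before to 50 bases after the start that RefSeq gives on GRCm38.p6. It is chr7:19282374-19282673 on the plus strand for Rtn2, where capitals mark GGGCGG read on the other strand, and chr7:19300744-19301043 on the minus strand for Gm26802, where capitals mark TATAAA read on the other strand.
Rtn2: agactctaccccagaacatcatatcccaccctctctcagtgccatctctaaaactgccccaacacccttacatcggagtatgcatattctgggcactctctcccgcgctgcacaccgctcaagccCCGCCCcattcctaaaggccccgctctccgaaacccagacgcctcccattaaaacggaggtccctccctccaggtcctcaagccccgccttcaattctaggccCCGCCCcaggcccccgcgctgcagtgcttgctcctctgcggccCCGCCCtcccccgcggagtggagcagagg
Gm26802: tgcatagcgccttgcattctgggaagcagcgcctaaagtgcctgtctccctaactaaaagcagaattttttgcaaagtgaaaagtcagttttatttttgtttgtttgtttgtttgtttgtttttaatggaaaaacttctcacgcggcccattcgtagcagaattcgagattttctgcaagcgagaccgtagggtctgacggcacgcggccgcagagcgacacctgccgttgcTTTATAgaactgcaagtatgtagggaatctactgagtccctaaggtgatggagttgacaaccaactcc

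The windows were searched on both strands for 5 motifs. These were the GC box GGGCGG, the CCAAT box, TATAAA, the AP-1 site TGACTCA and the cAMP response element TGACGTCA. Rtn2 held 3 copies of GGGCGG, which 35.7% of the 32851 promoter windows of the same length held at least once. Gm26802 held none of these and 1 copy of TATAAA, which was found in 13.6% of all windows. None of the 5 motifs occurred in both windows. Opa3 held 5 copies of GGGCGG and Ercc1 held 1, while the windows of Vasp and Ppm1n held no copy of any of the 5. The CCAAT box, the AP-1 site and the cAMP response element, present in 37.4%, 5.20% and 1.79% of windows, were in the windows of none of the 6 genes. These letters describe the windows only, and no binding data were used.

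GGACT is a common form of the sequence in which METTL3 methylates adenosine, and its copies in the Rtn2 transcript are shown because the enzyme was deleted. The longest protein-coding transcript, Rtn2-201, is 1990 bases long, has 10 exons and holds 4 copies. The 2 in exon 3 lie in coding sequence and the 2 in exon 10 lie in the 3′ UTR. Each is printed with its neighbouring bases, with the motif in capitals and its GRCm38 position on the plus strand.
Rtn2-201 site at chr7:19286765-19286769: acatcgcaGGACTggggcacc
Rtn2-201 site at chr7:19286840-19286844: ggccgtagGGACTcagttgtt
Rtn2-201 site at chr7:19295923-19295927: agcgacccGGACTacatttcc
Rtn2-201 site at chr7:19295984-19295988: gcctgctgGGACTtgtagttg

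These copies amount to 2.01 per kb of Rtn2-201, against a median of 1.02 per kb over the longest transcripts of 14065 listed genes. A density at least as high was found in 11.7% of those genes. The transcript of Gm26802 is 2144 bases long and held no copy, as did 12.3% of listed genes. Among the flanking genes there were 2 copies in Opa3, 1 in Vasp, 1 in Ppm1n and 0 in Ercc1. Rtn2, with 4 copies, and Gm26802, with none, were both chosen for their rise in cKO. A link between copies and the rise was not tested, and m6A itself was not analysed here.

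The deposited values are counts per gene divided by a size factor for each sample, called normalized counts below. Between 55965515 and 71464042 reads fell on the listed genes of a sample. In a limma fit on log2(normalized count + 1), 2576 of 14490 genes were higher in cKO at an adjusted p under 0.05, which is 17.8%, and 2731 were lower, which is 18.8%. When samples were scaled to equal totals instead, 3487 were higher and 2016 lower, so the share of higher genes among all calls moved from 48.5% to 63.4%. Mettl3 itself fell from a mean of 1251 ± 56.0 to one of 334 ± 61.9 normalized counts in cKO (SD, n = 3 each). It fell by 1.92 on the log2 scale (SE 0.0986, limma adjusted p = 2.32e-14). All 12 NK cell markers looked at were present, with sums of 875219 to 912246 normalized counts in WT and 827817 to 867218 in cKO. Of these 12, 7 were lower (58.3%) and 2 were higher (16.7%), beside 18.8% and 17.8% of all genes. Marker sums of other cells were lower, and none of their listed genes was at 0 in all samples. The 10 B cell markers summed to 1443 to 1483 in WT and 1965 to 2026 in cKO, and 6 of them were higher. The 8 listed of 10 T cell markers summed to 2617 to 2808 in WT and 2291 to 2492 in cKO, the 7 listed of 10 myeloid markers to 47199 to 50095 and 50018 to 51654, and the 8 listed of 10 erythroid markers to 18322 to 19058 and 14649 to 15408. A single gene held most of the myeloid sum and most of the erythroid sum. Without Itgax, which NK cells also express, the other 6 myeloid markers summed to 7130 to 7725 in WT and 7080 to 7884 in cKO. Of the 7 myeloid markers, 4 were higher by limma (57.1%), Itgax among them, and 1, Lyz2, was lower (14.3%). Without Car2, the other 7 erythroid markers summed to 846 to 916 and 741 to 870, and 0 of these 7 were called. In sorted bulk samples, more cells of a type and more RNA per cell cannot be told apart.

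Rtn2 and Gm26802 were each more than 3-fold higher in cKO by the group means. Rtn2 was measured at 242, 197 and 280 normalized counts across WT samples 1 to 3, against 918, 718 and 807 across cKO samples 1 to 3. Every cKO sample lay above every WT sample, and the gap between the groups was wider than the range within either one. The mean was 240.0 ± 41.3 for WT and 814 ± 100.3 for cKO (SD, n = 3 each), a log2 fold change of 1.77 (SE 0.117, 95% confidence interval 1.52 to 2.01), or 3.40-fold.

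Gm26802 was measured at 105, 85.7 and 144 normalized counts across WT samples 1 to 3, against 423, 341 and 470.0 across cKO samples 1 to 3. Again the groups did not overlap. The mean was 112 ± 29.9 for WT and 411 ± 65.4 for cKO (SD, n = 3 each), a log2 fold change of 1.89 (SE 0.169, 95% confidence interval 1.54 to 2.24), or 3.71-fold. The intervals of the pair overlapped. Raw reads behind these values ran from 166 to 903 for Rtn2 and from 72 to 514 for Gm26802, so of the pair the WT level of Gm26802 rests on fewer reads. Over 12 other settings of the fit, the log2 fold change stayed between 1.63 and 1.88 for Rtn2 and between 1.72 and 2.09 for Gm26802. The summed B cell markers were 1.37-fold higher in cKO, a smaller ratio than that of either gene, and their part in the rise was not tested.

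**Figure D1:**
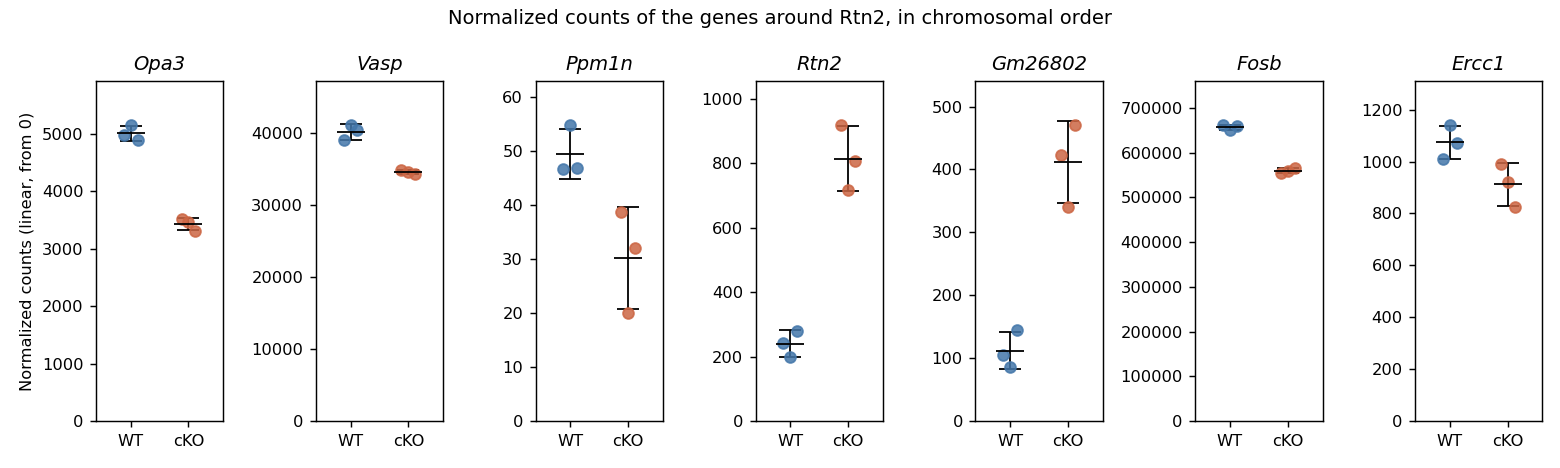
Normalized counts (vertical axes, linear and from 0, scaled for each gene) of the 6 genes and of Fosb, in chromosomal order, in the 3 WT (blue) and 3 cKO (orange) samples. Points are samples, long bars are means and whiskers are 1 SD; Rtn2 and Gm26802 sit higher in every cKO sample, and the other 5 genes sit lower.

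The plot of counts by gene shows that the pair was the only one of these genes with higher values in cKO. Per kb of the union of exons, the members of the pair were also alike in level. That union is 4585 bases for Rtn2, whose longest coding transcript has 1990, while Gm26802 has 2144 by both measures. The likeness therefore depends on the length used, and per kb of transcript Rtn2 would lie above Gm26802. In WT, Rtn2 had 52.3 normalized counts per kb and Gm26802 had 52.1, and in cKO they had 178 and 192. Over the 6 genes, levels in WT ran from 22.1 per kb for Ppm1n to 15328 per kb for Vasp. Opa3, at 986 per kb in WT, and Ercc1 lay between.

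The ratio of the 2 genes ran from 0.434 to 0.582 over the 6 samples. Both genes were chosen for their rise in these values, so ratios that are alike between genotypes follow in part from that choice. For each Rtn2 count there were 0.434, 0.434 and 0.516 counts of Gm26802 across WT samples 1 to 3, against 0.461, 0.475 and 0.582 across cKO samples 1 to 3. The group means of 0.461 ± 0.0471 (SD, n = 3) and 0.506 ± 0.0664 (SD, n = 3) differed by less than 1 SD, and the groups overlapped. Within each genotype, the sample with the lowest Rtn2 was also that with the lowest Gm26802. On the log2 scale, WT sample 2 lay 0.27 below its group mean for Rtn2 and 0.35 below it for Gm26802, and cKO sample 2 lay 0.17 and 0.26 below. The highest WT sample was also shared, sample 3. In cKO the highest sample differed, being sample 1 for Rtn2 and sample 3 for Gm26802.

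**Figure D2:**
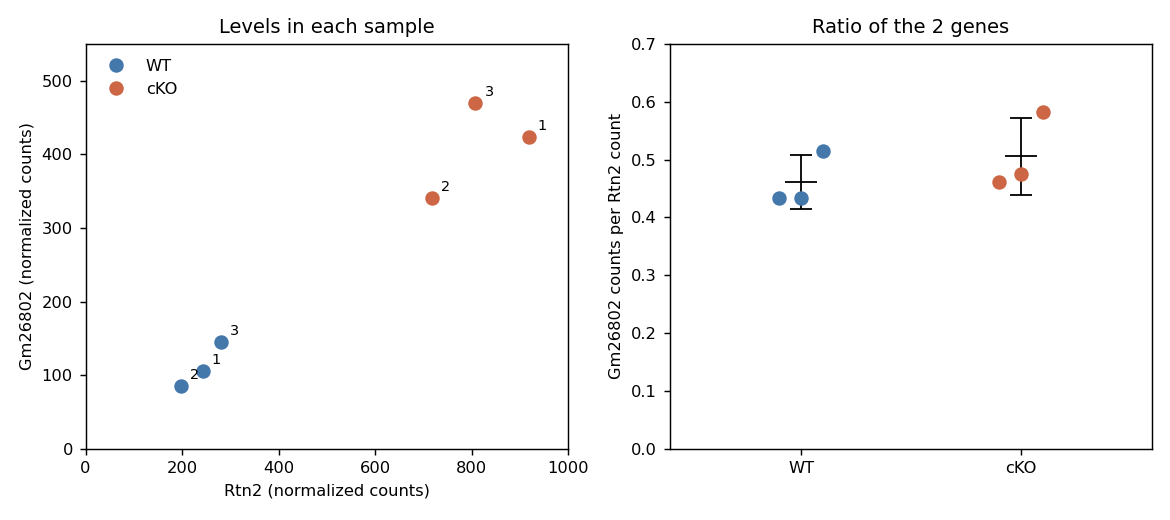
Left, normalized counts of Gm26802 (vertical) against Rtn2 (horizontal) in 3 WT (blue) and 3 cKO (orange) samples, numbered as in the labels. Right, the ratio of Gm26802 to Rtn2 counts in each sample, with the mean (long bar) and 1 SD (whiskers); the levels form 2 separate groups, while the ratios of 0.434 to 0.582 overlap between genotypes.

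Many genes followed the order of the samples as closely as Gm26802 did. The Pearson correlation with Rtn2 over the log2 values of the 6 samples was 0.991 for Gm26802, which ranked 38 among 11054 other genes with a mean of at least 100 normalized counts. The highest were Atp13a1, an endoplasmic reticulum ATPase gene, at 0.998, Rfxap, a regulator of MHC class II genes, at 0.998 and the transcription factor gene Nfic at 0.997, and 45 genes were above 0.99. These 3 genes had far smaller log2 fold changes, of 0.12, 0.33 and 0.34. The 6 points fall into 2 clusters, 1 for each genotype, so such values follow the step between genotypes.

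The 4 flanking genes did not share the rise. Of the 6 genes, the 2 chosen for it were higher, 3 were lower and 1 was not called. Without the pair, 0 of 4 were higher and 3 were lower, beside backgrounds of 17.8% and 18.8% of all genes.

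Opa3 (ENSMUSG00000052214.9, chr7:19228334-19256543, plus strand) lies 26.1 kb before Rtn2. It was measured at 4990, 5151 and 4891 normalized counts across WT samples 1 to 3, against 3518, 3460 and 3310 across cKO samples 1 to 3, with no overlap. The mean was 5011 ± 131 for WT and 3430 ± 107 for cKO (SD, n = 3 each), a fall of 0.55 on the log2 scale or 31.6% (limma adjusted p = 3.62e-11). This was the largest fall among the 3 flanking genes that passed the test.

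Vasp (ENSMUSG00000030403.9, chr7:19256929-19271817, minus strand) lies 10.8 kb before Rtn2 and is the most abundant of the 6 genes. It was measured at 38955, 41022 and 40363 normalized counts across WT samples 1 to 3, against 34771, 34564 and 34238 across cKO samples 1 to 3. The samples of a group lay close together and the groups did not overlap. The log2 fold change was −0.22 (SE 0.0296, limma adjusted p = 1.70e-06), a small change measured on at least 34199 reads in each sample.

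Ppm1n (ENSMUSG00000030402.5, chr7:19276805-19280064, minus strand) is the nearest gene before Rtn2, 2.56 kb from it, and the pair of starts lie side by side with the genes pointing apart. It was measured at 46.7, 54.7 and 46.8 normalized counts across WT samples 1 to 3, against 38.6, 19.99 and 32.0 across cKO samples 1 to 3. The groups did not overlap, but the log2 fold change of −0.74 (SE 0.329, 95% confidence interval −1.41 to −0.06) did not pass after adjustment (limma adjusted p = 0.0826). With 22 to 48 reads per sample, the depth limits what can be said of Ppm1n, and over 11 other settings its adjusted p by limma ranged from 0.0561 to 0.308. In these settings the log2 fold change lay between −0.93 and −0.48.

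Ercc1 (ENSMUSG00000003549.9, chr7:19344778-19356524, plus strand) lies 48.6 kb beyond Rtn2. It was measured at 1011, 1140 and 1073 normalized counts across WT samples 1 to 3, against 991, 921 and 826 across cKO samples 1 to 3. The highest cKO sample was only just below the lowest WT sample. The log2 fold change was −0.24 (SE 0.0736, limma adjusted p = 0.0121), and the call was lost without WT replicate 2 (−0.19, limma adjusted p = 0.0651) or without cKO replicate 3 (−0.17, limma adjusted p = 0.101). Ercc1 shares 106 exon bases with Cd3eap on the opposite strand, and the sources used here do not say whether reads were counted by strand.

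Fosb, a subunit of the AP-1 transcription factor, is no member of the 6 but lies next to Gm26802 on the same strand, so that Gm26802 begins 1926 bases beyond the 3′ end of Fosb. It was the gene with the second highest mean of all listed genes and took 0.988% of all normalized counts in WT and 0.872% in cKO. Fosb was measured at 661277, 650316 and 658754 normalized counts across WT samples 1 to 3, against 554377, 559109 and 565359 across cKO samples 1 to 3. It fell by 0.23 on the log2 scale (SE 0.0311, limma adjusted p = 1.34e-06). Gm26802 therefore moved in the other direction from the gene that precedes it on its strand. For every 10000 counts of Fosb WT held 1.70 ± 0.448 counts of Gm26802 and cKO held 7.35 ± 1.14 (SD, n = 3 each). Where reads of Gm26802 begin within its locus was not analysed here, as the files hold 1 value per gene.

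The rise was then followed outward along the chromosome. Within 100 kb of Rtn2 there were 17 listed genes, and 15 remained without the pair. Of these 15, 2 were higher (13.3%) and 6 were lower (40.0%), beside 17.8% and 18.8% of all genes. Their median log2 fold change was −0.21, against 0.0014 over all genes. No gene but the pair had a log2 fold change above 1. Only 165 of all 14490 genes reached that size, so its absence among 15 genes says little about how far the rise extends.

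The 2 higher genes were both on the far side of Ercc1. Cd3eap, which encodes a subunit of RNA polymerase I, had 295, 301 and 332 normalized counts across WT samples 1 to 3, against 474, 411 and 332 across cKO samples 1 to 3. Its log2 fold change was 0.38 (SE 0.122, limma adjusted p = 0.0165), with WT sample 3 and cKO sample 3 almost equal. The call was lost without WT replicate 1, cKO replicate 1 or cKO replicate 2, and over 12 settings the adjusted p by limma ran from 0.00188 to 0.152. Ppp1r13l, which encodes the p53 inhibitor iASPP, had 24.8, 23.8 and 49.8 normalized counts across WT samples 1 to 3, against 43.7, 65.4 and 61.3 across cKO samples 1 to 3. Its groups overlapped, and a log2 fold change of 0.84 (SE 0.332) reached a limma adjusted p of 0.0498. It passed in 6 of 11 other settings and was lost, among others, without WT replicate 1, WT replicate 2, cKO replicate 2 or cKO replicate 3. Without WT replicate 1 or without cKO replicate 2, both Cd3eap and Ppp1r13l were lost. The number of higher genes within 100 kb then dropped from 4 to 2. These numbers include the pair, which was chosen for its rise, so that the pair remained follows from that choice.

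The 6 lower genes were Opa3, Vasp, Ercc1, Fosb, Eml2 and 1700058P15Rik. Eml2, a microtubule-associated protein gene, fell by 0.19 on the log2 scale (limma adjusted p = 0.00312). The antisense RNA 1700058P15Rik, which lies within the body of Vasp on the opposite strand, fell by 0.21 (limma adjusted p = 0.0350) and passed in 5 of 12 other settings. Among them it was lost without WT replicate 2, WT replicate 3 or any 1 cKO replicate. The remaining genes within 100 kb were not called. Gpr4, a proton-sensing receptor gene, had a log2 fold change of −0.24, the non-coding RNA D830036C21Rik 0.22, the helicase gene Ercc2 0.03, Gm26852 0.09, Mir343 0.76 and the kinesin light chain gene Klc3 −0.37. Ercc2 shares exon bases with Gm26852, Klc3 and Mir343, so the reads of these 4 genes may not be fully separated.

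**Figure D3:**
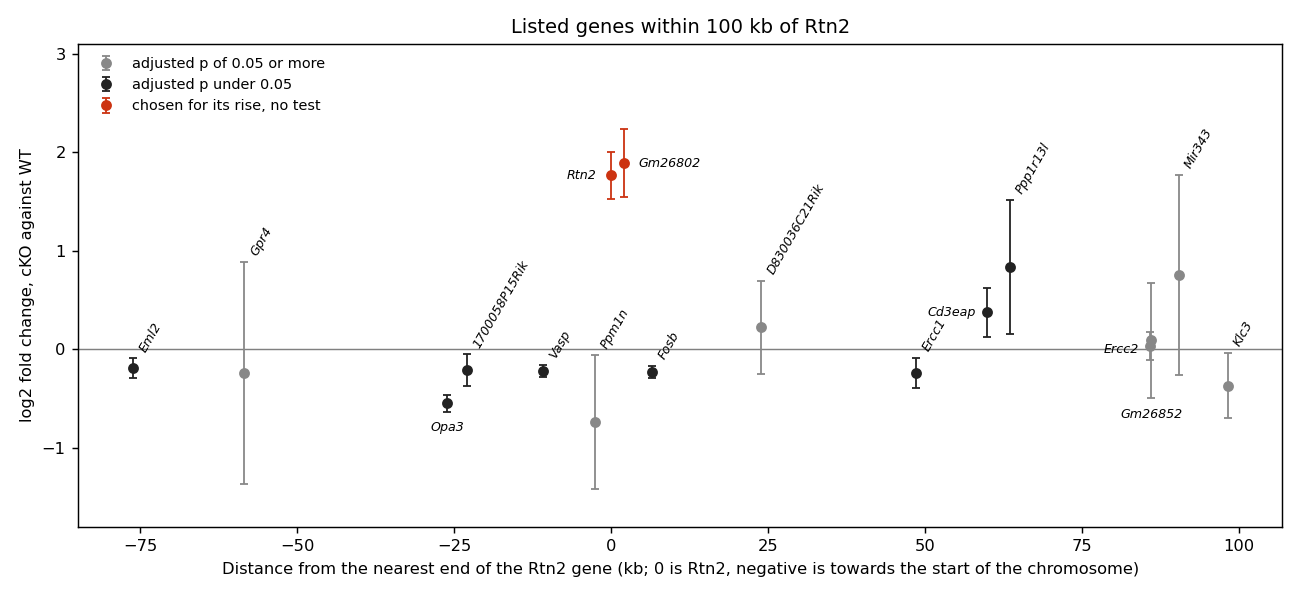
Log2 fold change of cKO against WT (vertical) for the 17 listed genes within 100 kb of Rtn2, by distance in kb from the nearest end of Rtn2 (horizontal). Points are limma estimates and whiskers 95% confidence intervals; the pair, in red and untested, lies at 1.77 and 1.89, and the other 15 genes lie at 0.84 or below.

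The plot of the 100 kb window shows no gradient of rising genes around Rtn2. On the side of lower coordinates, 0 of 6 genes were higher and 4 were lower. On the side of higher coordinates, 3 of 10 were higher, Gm26802 included, and 2 were lower.

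Within 1 Mb of Rtn2 there were 46 listed genes beside the pair, of which 7 were higher (15.2%) and 14 lower (30.4%), again beside 17.8% and 18.8% of all genes. None had a log2 fold change above 1, a size so rare among all genes that its absence among 46 says little. The share that was lower was above the background, while the share that was higher was not. On the side of lower coordinates, 1 of 19 genes was higher and 8 were lower. On the other side 7 of 28 were higher, Gm26802 included, and 6 were lower.

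**Figure D4:**
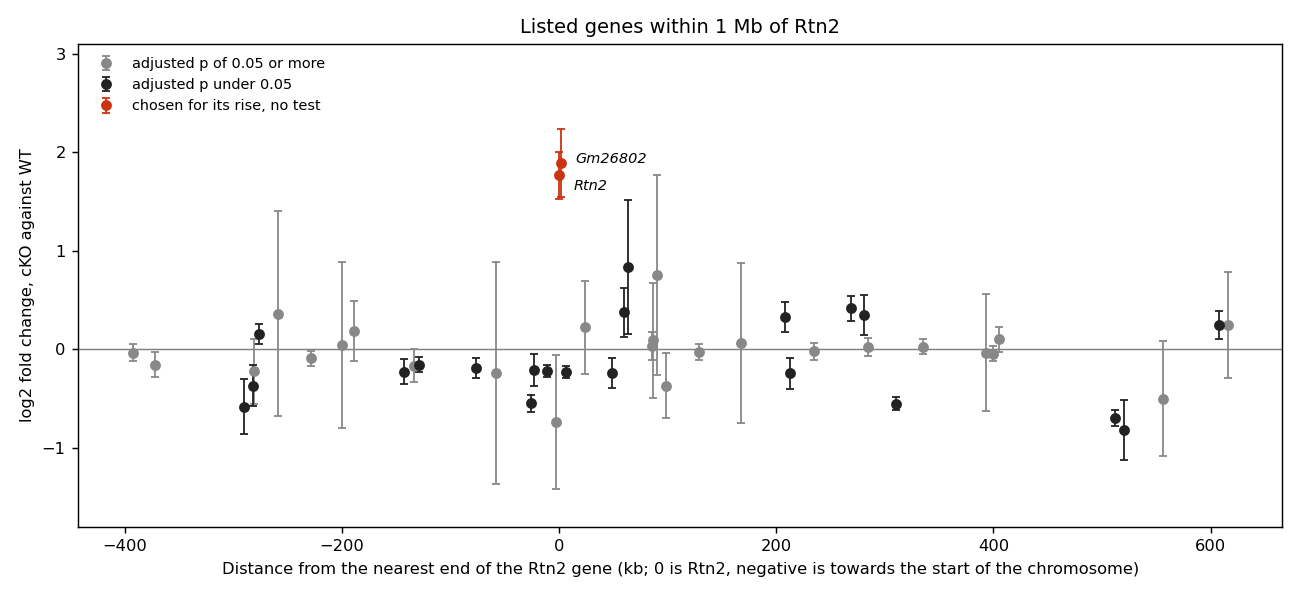
Log2 fold change of cKO against WT (vertical) for the 48 listed genes within 1 Mb of Rtn2, by distance in kb from the nearest end of Rtn2 (horizontal). Points are limma estimates and whiskers 95% confidence intervals; Rtn2 and Gm26802, in red and untested, are the 2 genes above 1.

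Rtn2 shares its chromosome with Ncr1, the locus that carries Cre in the cKO mice, so the chromosome was also divided by distance from Ncr1. Ncr1, which encodes the activating receptor NKp46, fell from a mean of 22394 ± 286 to one of 16918 ± 230 normalized counts in cKO (SD, n = 3 each). It fell by 0.40 on the log2 scale (limma adjusted p = 3.56e-11). Rtn2 starts 14.9 Mb beyond the end of Ncr1. Within 5 Mb of the start of Ncr1 on either side, 8 of 69 listed genes were higher and 14 were lower. From 5 to 10 Mb the counts were 2 and 5 of 20, and from 10 to 15 Mb, the stretch that holds the pair, they were 6 and 19 of 52. In that stretch 1 gene besides the pair had a log2 fold change above 1, Dact3, a Dishevelled-binding protein gene that is named here after its value was seen. It went from 10.9 ± 4.54 to 28.1 ± 5.63 normalized counts (SD, n = 3 each) on 5 to 37 reads, which is 1.36 on the log2 scale (limma adjusted p = 0.0254). This call was lost without WT replicate 2, cKO replicate 2 or cKO replicate 3. Higher genes, the pair included, made up 11.5% of the stretch with the pair, below the 17.8% of all genes, and lower genes made up 36.5%. The pair lies close to the far end of that stretch. In the next, from 15 to 20 Mb, 7 of 33 genes were higher (21.2%) and 6 were lower (18.2%). Over the 21 stretches of 5 Mb with at least 20 listed genes, the share of higher genes ran from 6.15% to 35.0% and the share of lower genes reached at most 36.5%, so the stretch with the pair had the highest share of lower genes. Chromosome 7 as a whole had 193 higher and 237 lower genes among 1114.

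The families and partners of the genes were looked at as lists, in the order of the genes' roles. Rtn2 belongs to a list of 20 genes of the reticulon family and of endoplasmic reticulum shaping, of which 17 were measured. In this list 2 were higher (11.8%) and 8 lower (47.1%), beside 17.8% and 18.8% of all genes, with a median log2 fold change of −0.09 against 0.0014 over all genes. The 2 higher genes were Rtn2, chosen for it, and Reep4, named after its value was seen, which clears the reticulum from chromatin in mitosis and rose by 0.36 (limma adjusted p = 1.43e-06). Atl1, the atlastin GTPase that fuses tubules, fell by 0.71 (limma adjusted p = 0.0145). Reep2 and Arl6ip1, hairpin proteins that curve the same tubules, fell by 1.02 (limma adjusted p = 0.0234) and by 0.29 (limma adjusted p = 3.29e-07). The call of Atl1 was lost without WT replicate 3, and that of Reep2 without WT replicate 2, WT replicate 3, cKO replicate 2 or cKO replicate 3. The other reticulons of the table, named here after their values were seen, did not rise with Rtn2. Rtn3 went from 8039 ± 241 to 6825 ± 280 normalized counts (SD, n = 3) and fell by 0.24 (limma adjusted p = 1.42e-05), and Rtn4 had a log2 fold change of −0.05 at a limma adjusted p of 0.316. The value of Rtn4 was 0.00303 with equal totals. Rtn1 was not analysed here.

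Opa3 stood in a list of 20 genes for mitochondrial fusion, fission and inner membrane shape, of which 18 were measured. Here 4 were higher (22.2%) and 3 lower (16.7%), close to the 17.8% and 18.8% of all genes. Besides Opa3, Chchd6, a subunit of the cristae-organizing MICOS complex, fell by 0.91 (limma adjusted p = 0.00331). Oma1, the stress-activated protease that cleaves OPA1, rose by 0.46 (limma adjusted p = 4.17e-05), and Yme1l1, another such protease, had a log2 fold change of −0.06 at a limma adjusted p of 0.233. The list had a median of −0.05.

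Vasp stood in a list of 24 partners in actin assembly, of which 22 were measured. Here 15 were lower (68.2%) and 2 higher (9.09%), beside 18.8% and 17.8% of all genes, with a median of −0.13. Actr3, of the Arp2/3 complex that branches filaments, fell by 0.22 (limma adjusted p = 2.36e-06), as did its companion Arpc4 by 0.19 (limma adjusted p = 7.63e-05). Pfn1, profilin, which feeds actin monomers to VASP, fell by 0.09 (limma adjusted p = 0.0382). That call was lost with equal totals, with limma-voom and without WT replicate 1, cKO replicate 1 or cKO replicate 3. With equal totals the list had 12 lower and 4 higher genes, beside 13.9% and 24.1% of all genes. Actr3, Vasp and Arpc4 had the largest changes among the called genes of the list.

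The 19 genes of the PP2C phosphatase family to which Ppm1n belongs were all measured. Of these, 5 were higher (26.3%) and 1 was lower (5.26%), beside 17.8% and 18.8% of all genes, with a median of 0.00. Ppm1d, the phosphatase WIP1 that turns off the p53 response, rose by 0.29 (limma adjusted p = 1.60e-05), Pptc7 by 0.25 (limma adjusted p = 0.000161) and Ppm1g, which acts on splicing factors, by 0.13 (limma adjusted p = 0.00133). Ppm1l was the 1 lower gene and fell by 0.34 (limma adjusted p = 0.0141), which was lost without cKO replicate 2.

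All 27 genes of nucleotide excision and crosslink repair were measured, of which 6 were higher (22.2%) and 3, Ercc1 among them, were lower (11.1%), beside 17.8% and 18.8% of all genes. Eme1, the partner of the MUS81 nuclease, rose by 0.46 (limma adjusted p = 0.0321), while Mus81 fell by 0.27 (limma adjusted p = 0.00127). Ddb1, a damage sensor and the most abundant of the list, had a log2 fold change of −0.04 at a limma adjusted p of 0.350. Ercc4, which encodes XPF, the nuclease that pairs with ERCC1, and is named here after its value was seen, rose by 0.14 (limma adjusted p = 0.0252), the other direction from Ercc1. The call of Eme1 was lost without WT replicate 1, cKO replicate 1 or cKO replicate 3, and that of Ercc4 without WT replicate 2, WT replicate 3 or cKO replicate 2.

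**Figure D5:**
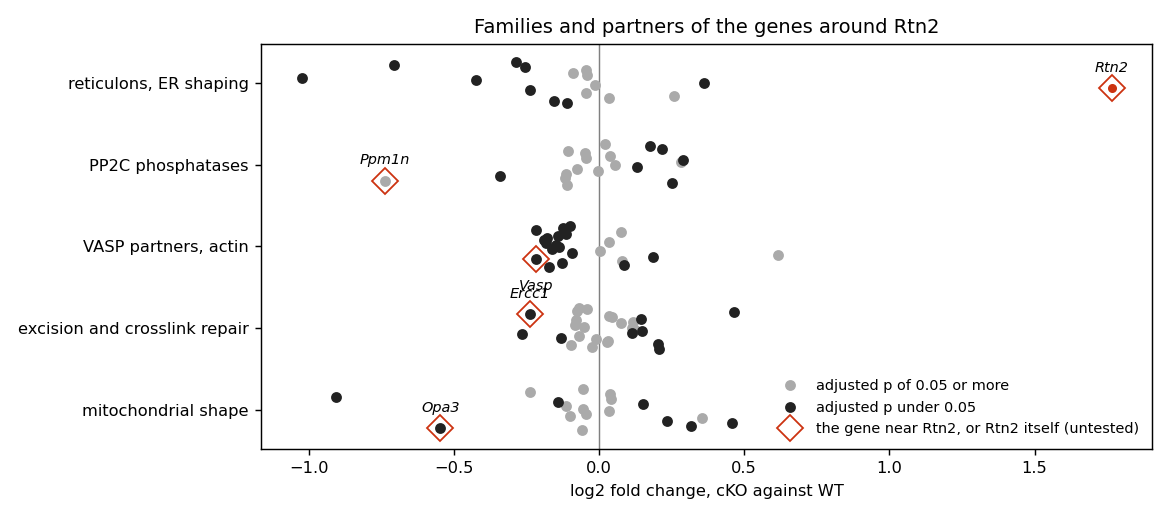
Log2 fold change of cKO against WT (horizontal) of each measured gene in 5 lists of families and partners (rows; vertical offsets within a row only separate the points). Black points passed and grey points missed an adjusted p of 0.05. Red diamonds mark the gene near Rtn2 that belongs to the list. Rtn2, at 1.77, was chosen for its rise and is untested, so its distance from its list follows in part from that choice. The other genes of that list lie at 0.36 or below.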

How the data were processed

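mRNA-seq of splenic NK cells from 3 WT and 3 cKO samples was used, grouped and numbered by the sample labels. Reads were aligned by the authors with Hisat2 to the GRCm38 build and assigned to genes with featureCounts, for which the submitters' notes give versions 2.0.5 and 1.5.0-p3. The deposited values per sample are a signal: gene counts that the authors scaled by the size factors of DESeq2 (1.16.1 in the notes). The authors' own log2 changes and errors, Wald score and p-value columns in the deposited table were left unused. The strand setting of the counting is not given in the sources used here.

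Values were taken as log2(value + 1). A filter of at least 1 in at least 3 samples removed 0 of 14490 genes. Genotypes were compared in R 4.3.3 by limma 3.58.1 with its trend option. Tests were two-sided, p-values were adjusted over all genes after Benjamini and Hochberg, and a call needs an adjusted p under 0.05. The steps were tested on simulated data. The labels do not say that samples came from separate mice, so p-values measure the spread between these samples only. Reads followed from the values, which were whole multiples of a step within 0.05 of a read, and the depth covers listed genes only.

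Positions, exon lengths (the union of all exons) and transcripts came from GENCODE M21 on GRCm38, to which 97.3% of names matched, and promoters from RefSeq. GGACT was sought in the sense strand of the longest transcript of a gene, protein-coding for coding genes. Promoters and transcripts were found for all 6 genes.

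The 6 genes and the lists were chosen with earlier results of these data known. Named are the 6 genes, listed genes within 100 kb of Rtn2, Mettl3, Ncr1, from each list at most the 3 called genes with the largest changes and the most abundant one, and the 3 genes most correlated with Rtn2. Alternatives were a pseudocount of 0.1, no filter, at least 1 CPM in at least 3 samples, limma-voom, equal totals, replicate number as a block, and each replicate left out in turn. Genes named outside this rule are marked as such. MeRIP-seq was not analysed here.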

Additional observations from a re-analysis of the deposited data

How the results depend on the processing

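Of 834 comparisons of a reported value or count with one of 12 settings, 767 were taken as the same. A value had to keep its direction and its side of the threshold, and a count had to stay within 1.5 times. For the untested pair, the log2 fold change had to keep its direction and move by less than its SD within genotypes. Some of the 767 had to match. The setting without a filter repeats the main fit, as the filter removed 0 genes, and the block cannot change a log2 fold change. The settings for 44 single genes other than the 6 genes, Fosb and Mettl3 were added after the data were seen. In 10 comparisons a log2 fold change turned its sign, each of a gene that was not called: Gpr4 without WT replicate 2 or cKO replicate 1 (−0.72 to 0.19 over the replicates left out), Ercc2 without WT replicate 1 (−0.0407 to 0.0874), Gm26852 without WT replicate 1, WT replicate 2 or cKO replicate 2 (−0.13 to 0.44), and, with equal totals and limma-voom alike, Rtn4 (0.00303 and 0.00305) and Ddb1 (0.00728 and 0.00724). The log2 fold change of Ercc1 missed the threshold with limma-voom (−0.19, adjusted p = 0.0519) and ranged from −0.30 to −0.17 when 1 replicate was left out. Leaving out 1 replicate, higher genes numbered 2 to 4 within 100 kb, the selected pair included. They numbered 3 to 5 in the repair list, 3 to 5 in the PP2C list and 0 to 2 in the actin list. Lower genes numbered 5 to 7 in the reticulon list. The lowest counts came without WT replicate 1 or cKO replicate 2 (100 kb), WT replicate 1 or 2 (repair), WT replicate 2 (PP2C), WT replicate 2 or cKO replicate 3 (actin) and WT replicate 3 or cKO replicate 3 (reticulon). The actin list had 1 higher gene without WT replicate 1, WT replicate 3 or cKO replicate 1. The actin list had 4 higher genes with equal totals and 4 with limma-voom. The cause of these shifts was not tested. Equal totals and limma-voom each put the median over all genes at 0.05 on the log2 scale, with 3453 higher and 2004 lower genes under limma-voom. The filter of at least 1 CPM left 11817 genes and dropped Ppm1n. The planned count tests on reads recovered from the values were not run.

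The samples share only a number: same-numbered WT and cKO samples had correlations of −0.040, 0.056 and 0.038 between their deviations from the group means, and 2 of 3 WT samples correlated best with their own number. With the replicate number as a block, 2692 genes were higher and 2851 lower. Each number has a sample of each genotype, so the block can change errors and calls but not a log2 fold change. Those of Rtn2 and Gm26802 were thus 1.77 and 1.89 by design. Ercc1 kept its call with the block (adjusted p by limma 0.00987).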

Other observations

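The following were chosen after the values were seen and are given as values. Within 1 Mb of Rtn2, a pair of NF-kappaB genes was lower. Relb, a Rel subunit, fell by 0.55 on the log2 scale (limma adjusted p = 2.09e-13) and Bcl3, a nuclear coregulator of that pathway, fell by 0.70 (limma adjusted p = 3.09e-13). Bloc1s3, Gemin7, Zfp296, Pvr and Irf2bp1 were higher in the same window, with log2 fold changes of 0.33, 0.42, 0.35, 0.25 and 0.16. The call of Zfp296 was lost without cKO replicate 1, and that of Irf2bp1 without cKO replicate 2 or cKO replicate 3.

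Gm26802 lies within 10 kb beyond the 3′ end of Fosb, one of the most abundant transcripts. There were 32 other listed genes within 10 kb beyond the 3′ end of one of the 50 most abundant genes. Of these, 23 lay on the same strand as that gene, as Gm26802 does. Of these 23, 3 were higher (13.0%) and 8 lower (34.8%), beside 17.8% and 18.8% of all genes, with a median log2 fold change of −0.12. The 23 include genes of the mitochondrial genome beyond mt-Co1. Among the 14 nuclear genes, 3 were higher and 5 lower, with a median of −0.02. One, Rpl27a-ps1 beyond Prf1, a pseudogene of a ribosomal protein gene, had a log2 fold change above 1, at 1.17. Atg101 beyond Nr4a1 had 0.35. The distances varied within the 10 kb, and Gm26802 lies 1926 bases beyond Fosb. The 3 higher nuclear genes, Heatr9, Rpl27a-ps1 and Atg101, lay 3603, 5150 and 9477 bases beyond. The 5 lower ones, Tmem88, Dapk3, Polg2, Gm8752 and Cyb5d1, lay nearer, at 274, 507, 818, 2083 and 2877 bases. A link between distance and change was not tested.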
